A study of Mus musculus with 8 samples.

Results

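The 67 replication-dependent histone genes of the mouse were followed in ATAC-seq peak lists over the first 2 h of Ikaros induction in pre-B cells. The genes were all protein-coding genes of the GENCODE M21 annotation (genome build GRCm38) whose symbols begin with Hist1h, Hist2h, Hist3h or Hist4h, and a peak belonged to them when its summit lay within 1 kb of one of their 71 start sites. By this rule 642 of the 767727 peaks in the 8 deposited lists were histone gene peaks. Of these peaks, 474 lay near 1 gene, 164 near 2 genes and 4 near 3 genes, since many of these genes are neighbours. No measured value entered the rule for the genes, which were chosen with earlier results of these data known.

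ATAC-seq marks open DNA, into which the Tn5 transposase inserts sequencing adapters. All 8 libraries came from B3 cells, a pre-B line of the mouse carrying a transduced Ikaros-ERt2 construct, in which 4-hydroxytamoxifen (4-OHT) moves the transcription factor Ikaros (IKZF1) into the nucleus. The groups were untreated cells (0 h, no treatment) and cells kept in 500 nM 4-OHT over 30 min, 1 h or 2 h, 2 replicates for each. Nothing in the labels says that replicates were separate cultures, no untransduced cells with 4-OHT were among these libraries, and the 0 h cells had no 4-OHT, so that an effect of the drug and an effect of nuclear Ikaros cannot be told apart. Of 8 B-lineage marker genes, 6 (Cd79a, Cd79b, Ebf1, Pax5, Igll1 and Blnk) had a peak at the start in all 8 lists, against 1 of 4 T-cell genes (Lck), 0 of 4 myeloid genes and 0 of 4 erythroid genes. The lists held 85903 to 103897 peaks, and the background that the peak caller used, which stands for depth, was 0.26 to 0.405 fragments per base. Replicate 1 was deeper than replicate 2 at every time point.

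Replication-dependent histone genes supply the core histones H2A, H2B, H3 and H4 and the linker histone H1 for the DNA copied in S phase. They are short, mostly lack introns, lie in clusters, and give mRNAs that end in a stem-loop in place of a poly(A) tail. Transcription and 3′ end formation take place in histone locus bodies, which hold the activator NPAT, and many H2A and H2B genes are transcribed away from each other from a shared stretch of promoter.

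Promoter sequences were matched to 62 of the 67 genes in a RefSeq table for GRCm38.p6, which gives 250 bases before and 50 bases after each start. The sequences below are those of the gene with the highest peak at 0 h in each family for which the table had an entry (Hist1h1c for H1, Hist2h2aa2 for H2A, Hist1h2bk for H2B, Hist1h4n for H4; Hist1h3f for H3 had none), of the 3 genes with the most negative shift over time (Hist1h4c, Hist1h4f and Hist1h4a) and of the gene with the most positive shift (Hist1h1a). Sequences run 5′ to 3′ along the gene. Capitals mark, on either strand, the TATA box word TATAAA, the CCAAT box, the octamer ATGCAAAT, the H1 box AAACACA, the word GGTCCG of H4 promoters and the Ikaros core GGGAA, and where marked words touch they form 1 run of capitals. Words were marked wherever they stood. TATAAA lay at −250 from the start in Hist1h4f, −198 in Hist1h2bk, −127 in Hist1h4n, −33 in Hist1h1a and 41 in Hist1h4a, so a mark does not place a TATA box.
Hist1h4c, chr13:23698409-23698708, minus strand: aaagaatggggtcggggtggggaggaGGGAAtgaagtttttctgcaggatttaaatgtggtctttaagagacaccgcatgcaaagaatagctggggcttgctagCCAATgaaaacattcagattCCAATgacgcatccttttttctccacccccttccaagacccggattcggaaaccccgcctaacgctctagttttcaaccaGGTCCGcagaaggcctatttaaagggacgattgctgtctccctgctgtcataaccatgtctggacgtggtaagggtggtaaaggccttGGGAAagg
Hist1h4f, chr13:23551619-23551918, minus strand: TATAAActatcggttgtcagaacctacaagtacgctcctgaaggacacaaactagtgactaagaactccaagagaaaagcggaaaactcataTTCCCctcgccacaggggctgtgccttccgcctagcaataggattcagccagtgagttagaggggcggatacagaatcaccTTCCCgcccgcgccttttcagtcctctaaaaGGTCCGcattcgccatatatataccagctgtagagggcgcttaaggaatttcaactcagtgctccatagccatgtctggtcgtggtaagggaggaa
Hist1h4a, chr13:23761200-23761499, minus strand: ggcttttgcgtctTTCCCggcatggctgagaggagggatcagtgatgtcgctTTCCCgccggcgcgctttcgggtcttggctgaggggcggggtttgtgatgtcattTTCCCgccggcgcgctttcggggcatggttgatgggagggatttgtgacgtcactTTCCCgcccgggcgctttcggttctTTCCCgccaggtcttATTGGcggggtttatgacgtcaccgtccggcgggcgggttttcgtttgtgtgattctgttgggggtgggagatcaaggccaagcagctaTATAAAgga
Hist1h4n, chr13:21832148-21832447, minus strand: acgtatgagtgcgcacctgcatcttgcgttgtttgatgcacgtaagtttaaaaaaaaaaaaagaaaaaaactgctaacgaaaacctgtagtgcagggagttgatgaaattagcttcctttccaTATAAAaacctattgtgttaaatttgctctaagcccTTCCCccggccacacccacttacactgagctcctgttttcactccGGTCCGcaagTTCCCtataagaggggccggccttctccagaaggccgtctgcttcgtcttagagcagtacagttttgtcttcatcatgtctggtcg
Hist1h1a, chr13:23763418-23763717, plus strand: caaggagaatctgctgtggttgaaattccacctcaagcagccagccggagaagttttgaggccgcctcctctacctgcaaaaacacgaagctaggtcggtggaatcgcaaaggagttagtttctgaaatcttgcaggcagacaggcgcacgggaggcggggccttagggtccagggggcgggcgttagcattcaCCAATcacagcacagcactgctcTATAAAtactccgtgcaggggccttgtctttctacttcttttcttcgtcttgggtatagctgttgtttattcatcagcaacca
Hist1h1c, chr13:23738557-23738856, plus strand: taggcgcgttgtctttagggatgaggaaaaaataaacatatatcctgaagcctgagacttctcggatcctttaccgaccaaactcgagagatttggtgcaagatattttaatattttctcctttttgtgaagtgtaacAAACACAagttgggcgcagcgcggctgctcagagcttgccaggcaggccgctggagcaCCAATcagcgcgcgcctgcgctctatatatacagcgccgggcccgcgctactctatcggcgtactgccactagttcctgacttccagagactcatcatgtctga
Hist1h2bk, chr13:22035571-22035870, plus strand: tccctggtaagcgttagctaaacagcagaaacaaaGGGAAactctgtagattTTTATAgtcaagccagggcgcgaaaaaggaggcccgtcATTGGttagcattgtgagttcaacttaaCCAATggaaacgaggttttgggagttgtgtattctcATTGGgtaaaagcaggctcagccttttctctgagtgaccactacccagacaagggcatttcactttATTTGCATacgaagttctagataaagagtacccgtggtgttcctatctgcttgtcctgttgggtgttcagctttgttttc
Hist2h2aa2, chr3:96240325-96240624, minus strand: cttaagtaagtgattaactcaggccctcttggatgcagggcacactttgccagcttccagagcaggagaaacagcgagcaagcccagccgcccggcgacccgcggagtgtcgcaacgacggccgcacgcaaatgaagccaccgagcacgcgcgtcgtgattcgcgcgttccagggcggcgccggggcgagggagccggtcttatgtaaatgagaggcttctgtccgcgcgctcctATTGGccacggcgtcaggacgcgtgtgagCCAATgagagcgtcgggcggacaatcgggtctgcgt

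Promoter words differed between some histone families, while H2A and H2B promoters were alike in CCAAT, octamer and H1 box. CCAAT, the letters bound by the factor NF-Y, stood in all 6 H1, all 18 H2A, all 16 H2B and all 10 H3 promoters matched but in 3 of 12 H4 promoters, which makes 85.5% of the histone promoters against 37.4% of all 32817 promoters in the table. The octamer ATGCAAAT, the letters bound by OCT1 (Pou2f1), was found in 7 of 18 H2A and 6 of 16 H2B promoters and in no H1, H3 or H4 promoter (21.0% against 1.74%). The H1 box AAACACA stood in 5 of 6 H1 promoters (14.5% of histone promoters against 7.19% of all). GGTCCG, a word of the H4 subtype element bound by HINFP, stood in 11 of 12 H4 promoters, at position −46 from the start (position 0) in Hist1h4c, Hist1h4f and Hist1h4n, and in 21.0% of histone promoters against 8.26% of all. TATAAA was present at any position in 56.5% against 13.6%, and on the strand of the gene alone in 48.4% against 8.3%. GGGAA, the core of the Ikaros binding site, was in all 12 H4 promoters, and in 56.5% of histone promoters against 62.7% of all. Each word was searched on both strands, and a stretch could count for more than 1 word. A match of letters describes the sequence and says nothing about binding in these cells.

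Most histone genes carried an accessible site that was present throughout. A peak lay within 1 kb of the start in all 8 lists for 57 of 67 genes, in some lists for 3 genes and in none for 7. The share with a peak in every list was 4 of 6 for H1, 15 of 18 for H2A, 14 of 18 for H2B, 11 of 12 for H3 and 13 of 13 for H4. Each list marked 57 to 60 of the genes with 73 to 84 peaks.

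The genes without a peak fell into separate kinds. For Hist1h2bq, Hist1h2ao, Hist1h2ap and Hist1h2br, which form a pair of divergent H2A/H2B units on chromosome 13, the whole 2001 bp around the start has an identical copy elsewhere on the chromosome (stretches of at least 75 bp counted), and these 4 genes were the only ones with such a complete copy. Reads from such sequence cannot be placed uniquely, and how the aligned reads were filtered for this was not tested here. Hist1h2ba and Hist1h2aa, the testis-specific H2B and H2A genes, share a promoter on chromosome 13 and had no peak in any list. Hist1h1d, the gene of linker histone H1.3, starts in GENCODE at position 23553262 and in RefSeq at position 23555032, 1770 bp downstream, and peaks lay within 1 kb of the RefSeq start in all 8 lists at percentiles from 62.8 to 90.5. Of the genes marked in some lists, Hist1h1t, the testis-specific linker histone gene, had peaks in 6 lists, with 7 to 19 fragments at the summit and percentiles from 3.95 to 56.7. Hist3h2ba had 6 to 8 fragments in both 1 h lists and in 2 h replicate 1. Hist2h3c1 had 7 fragments in 1 h replicate 1 and in 2 h replicate 1.

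Summits clustered at the start sites. Of the 642 peaks, 303 had the summit within 100 bp of a start and 375 (58.4%) within 250 bp. In the annotation 139 summits lay in coding sequence, all of it histone coding sequence, 165 in an untranslated region, 52 in an exon of a non-coding transcript, 35 in an intron and 251 between genes. Seen from the nearest histone gene, 284 summits were upstream, 297 inside the gene and 61 past its end. The genes are short (median 539 bp, 48 of 67 under 1 kb), so a distance of 1 kb can reach beyond the 3′ end. Just inside the limit, a peak lay 998 bp from the Hist1h3c start at percentile 80.1, and just outside it, a peak lay 1109 bp from the Hist1h1b start at percentile 72.9.

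The families differed in where the highest peak of a gene sat. For H2A and H2B genes it lay mostly upstream, with a median of −75.5 bp and −98 bp from the start. For H4 genes the median was 41 bp, inside the transcribed part, and for H3 genes −11 bp. For H1 genes it was 226 bp, with quartiles of −4 and 865 bp, and in 0 h replicate 1 the highest peaks of Hist1h1c and Hist1h1e lay 907 and 858 bp into genes of 1560 and 1930 bp. In Hist1h1c, the gene of linker histone H1.2 at 23738808 to 23740367 on chromosome 13, the highest peak of 0 h replicate 1 had its summit at 23739715, 907 bp from the start and in an untranslated region. The highest peak counted for Hist1h3f lay at −578 bp from that gene's start and was also the peak of the neighbouring Hist1h2bh.

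**Figure D1:**
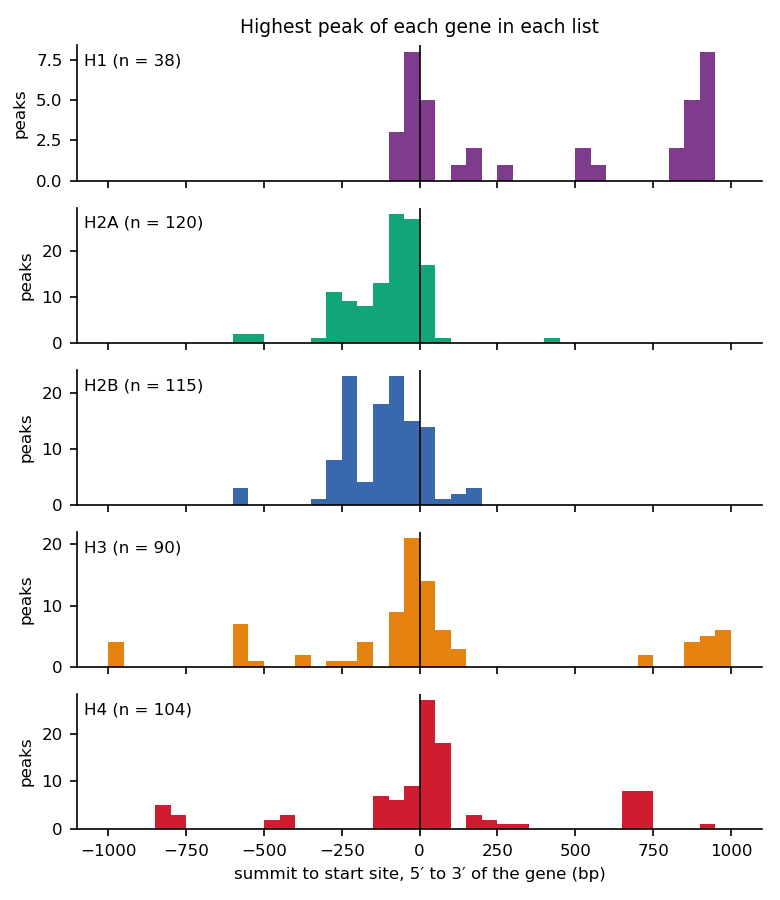
Distance from the start site to the summit of each gene's highest peak in each list, in bp along the gene, counted in bins of 50 bp for the 5 histone families (n is genes times lists with a peak). H2A and H2B summits gather just upstream of the start, and a peak shared by a divergent pair counts in both families. H4 summits gather just downstream of the start, and H1 has a separate group far downstream, where the Hist1h1c summit at 907 bp lies.

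Accessible sites at histone genes were high in fragments and moderate in fold. Within a list, peaks were ranked by the authors' fold, the pileup of fragments at the summit over the local background, and the rank is given as a percentile of all peaks in that list. The median percentile of the histone gene peaks was 62.2 and 64.7 in untreated cells, 61.7 and 62.3 after 30 min, 63.5 and 59.7 after 1 h, and 56.1 and 54.3 after 2 h. Both 2 h values were below the other 6. Peaks at other protein-coding promoters had median percentiles of 65.7 to 69.7, with no such difference at 2 h.

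The number of fragments gave another picture. The median histone peak had 44 and 35 fragments at its summit at 0 h, 36 and 31 after 30 min, 33.5 and 29.5 after 1 h, and 33.5 and 29 after 2 h, where the median peak of a list had 11 to 14. Ranked by fragments, the histone peaks had median percentiles of 83.0 to 88.3, above the 74.2 to 77.3 of other promoters in every list. The local background around the histone peaks was 4.35 to 6.06 times that of the median peak of the list, which lowers the fold at a given number of fragments. Since the fold and the fragments differ in this way, fragments are also given for some of the genes below.

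**Figure D2:**
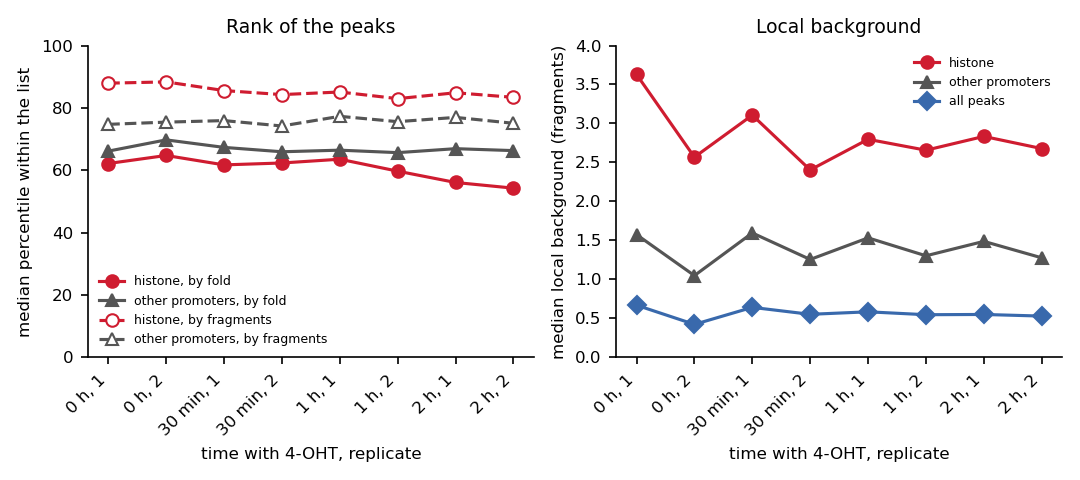
Median percentile of peaks within each list, by fold (filled) and by fragments at the summit (open), and median local background in fragments, for histone gene peaks, peaks at other protein-coding promoters and all peaks in the 8 lists. Histone peaks lie above other promoters by fragments and below them by fold, and their local background is the highest of the 3 sets in every list.

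The genes spanned a wide range at 0 h. Taking the highest peak of each of the 57 genes, the mean percentile at 0 h ran from 35.9 (Hist1h4a) to 99.99 (Hist1h4n), with a median of 74.1. There were 23 genes above 80 and 6 below 50. The replicates of a time point differed by a median SD of 2.77 points (n = 2), and by up to 31.7 points, so a change of a few points in a given gene was within the spread.

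By fold, Hist1h4n stood at the top of the histone genes in every list. Its percentile was 99.94 to 99.99 in all 8 lists, with 102 and 87 fragments in untreated cells, 91 and 73 after 30 min, 85 and 70 after 1 h and 84 and 73 after 2 h. By fragments it was not the highest histone peak in every list, since the peak of Hist1h2bh had 89 and 90 after 2 h. In 0 h replicate 1 the peak was 143 bp wide with its summit in the coding sequence, 40 bp from the start, and the local background was 0.788 fragments, against a median of 3.63 for histone peaks in that list. Of the 2001 bp around this start, 14.2% has an identical copy elsewhere, and the part of that in the low background was not tested.

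In the other families the highest genes were Hist2h2aa2, Hist1h2bk, Hist1h3f and Hist1h1c. Hist2h2aa2 had percentiles of 97.7 and 95.2 in untreated cells and of 89.3 and 97.4 after 2 h, which overlap. Hist1h2bk, which shares its peak with Hist1h2ah, had 92.1 and 94.1 in untreated cells and 89.6 and 92.5 after 2 h, which overlap too. Hist1h3f had 93.3 and 90.8 in untreated cells and 93.9 and 95.3 after 2 h, with both 2 h values above both 0 h values. Its rank score differed by 0.15 ± 0.26 (SE), within the spread (limma adjusted p = 0.725).

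The divergent H2A/H2B genes shared their peaks. There were 12 divergent pairs with starts at most 500 bp apart (176 to 306 bp), all of them 1 H2A and 1 H2B gene. In 9 of the 12 both genes had a peak in all 8 lists, and in all 9 the highest peak of both genes lay in the same region, so their values are the same measurement. The other 3 pairs are the 6 H2A and H2B genes without a peak named above. The mean percentile at 2 h minus that at 0 h ran from −8.72 (Hist1h2bf/Hist1h2ad) to 13.9 (Hist1h2ag/Hist1h2bj) over these pairs.

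**Figure D3:**
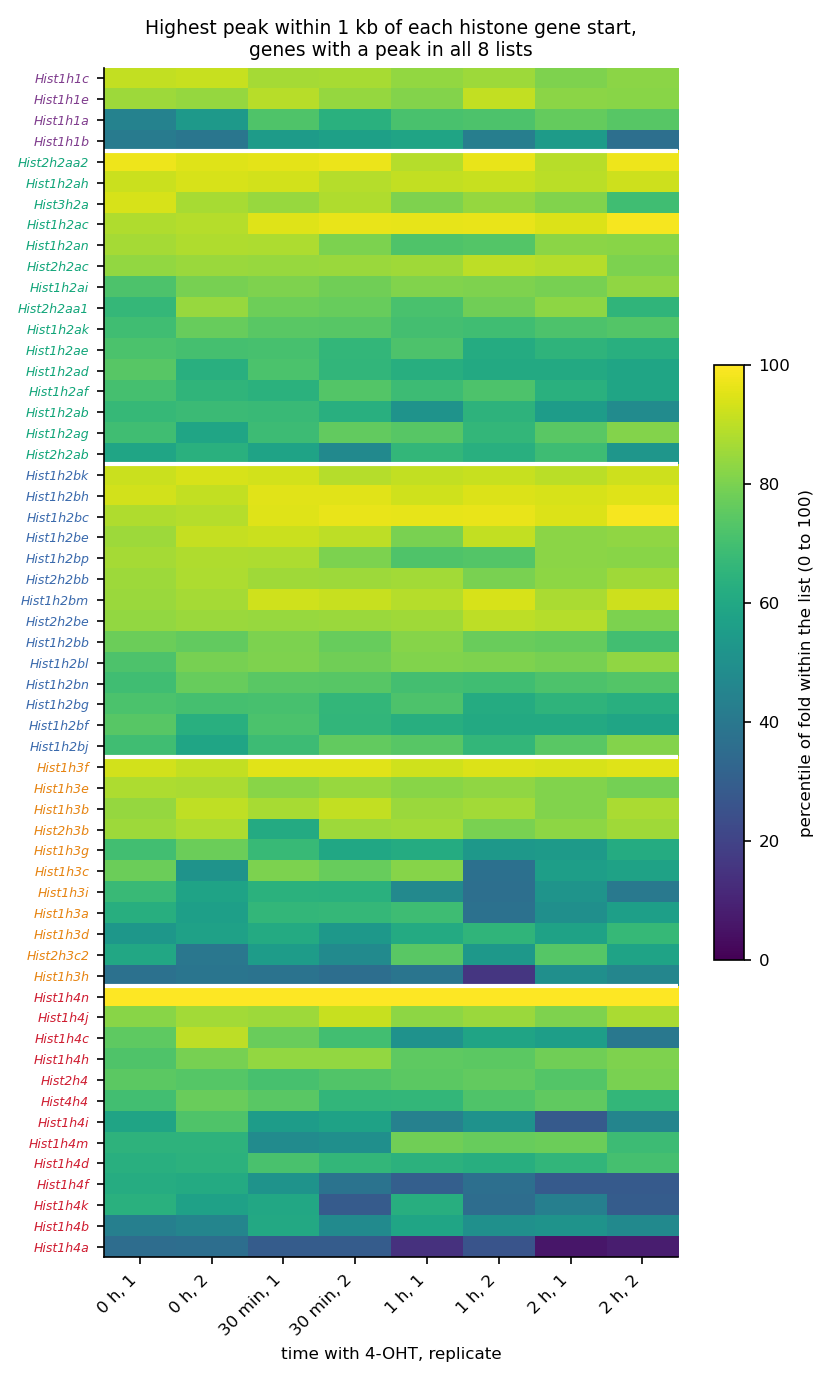
Percentile of the highest peak within 1 kb of the start, by fold within each list (colour, 0 to 100), for the 57 genes with a peak in all 8 lists, grouped by family and ordered by the 0 h mean. Hist1h4n is at 99.94 to 99.99 throughout, while Hist1h4c, Hist1h4f, Hist1h4i, Hist1h4k and Hist1h4a darken from 0 h to 2 h.

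The next question was whether accessibility at these genes changed as Ikaros entered the nucleus. Overlapping peaks of all lists were merged into 174718 regions, 101 of which held a histone gene peak. The 63 of these with a peak in all 8 lists were tested among all 47875 such regions. Ranks of the fold among these regions were turned into normal scores (rank scores, in SD units of a normal distribution), and limma compared each time with 0 h. At an adjusted p under 0.01, 0 of 63 regions were lower and 0 of 63 higher at 2 h, where 4.71% of all tested regions were lower and 2.28% higher. The counts were also 0 at 30 min, where 0% of all regions passed in either direction, and at 1 h, where 2.51% were lower and 1.1% higher. Without adjustment, a limma p under 0.05 was found with a lower score in 4 of the 63 at 30 min (9.94% of all regions), 9 at 1 h (15.5%) and 12 at 2 h (17.4%), and with a higher score in 1 (9.51%), 3 (14.9%) and 4 (17.1%).

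The region values leaned downward without passing that threshold. Of the 63 regions, 47 had a lower mean rank score at 2 h than at 0 h (74.6%, against 46.7% of all regions and 56.9% of 12069 regions at other protein-coding promoters). The median difference was −0.15 at 30 min, −0.22 at 1 h and −0.27 at 2 h, where other promoters had −0.03, −0.09 and −0.09 and all regions 0.03, 0.05 and 0.06. Regions at 82 ribosomal protein genes, a set of strong promoters, had −0.07, −0.19 and −0.16. The 18 regions at 13 replication helicase genes (Mcm and Gins genes) had −0.14, −0.21 and −0.40. At 2 h 72.2% of these 18 regions had a lower mean rank score than at 0 h, and in 55.6% both 2 h scores lay below both 0 h scores. The downward lean was thus not particular to the histone genes. Both 2 h scores lay below both 0 h scores in 31 histone regions (49.2%; 29.8% of all regions) and above them in 8 (12.7%; 32.8% of all regions). No test between these sets was made, because regions are not replicates of a condition and neighbours share a promoter.

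The size of the shift depended on the scale. As percentile of all peaks in a list, the median histone region moved by 0.747 points at 30 min, −1.66 at 1 h and −2.38 at 2 h, while the median of all regions moved by 3.66 at 2 h. As percentile among the tested regions the median moved by −7.53 points at 2 h, against 1.35 for all. Log2 fragments over the background of the library, centred on the median region, had a median difference of −0.35 at 2 h, and −0.20 without centring. Fitted on centred log2 fragments with limma, 0 regions passed an adjusted p of 0.01 at 30 min (1.3% of all regions were lower and 0.322% higher), 2 were lower and 0 higher at 1 h (6.63% and 3.48%), and 4 were lower and 0 higher at 2 h (9.37% and 5.43%). The 4 regions were those of Hist1h4c, Hist1h4f, Hist1h4i and Hist1h1c. At 0.05 the fragments gave 1 region lower and 0 higher at 30 min (4.77% and 3.19%), 9 and 1 at 1 h (12.3% and 9.94%), and 16 and 1 at 2 h (15.6% and 13.4%).

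**Figure D4:**
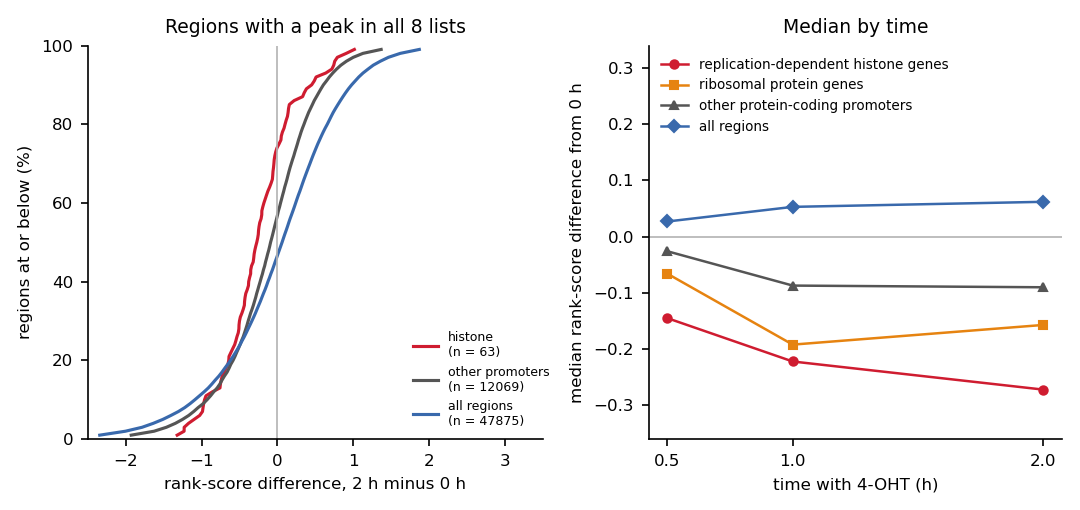
Cumulative share of regions by the difference in rank score between 2 h and 0 h (left) and the median difference at 30 min, 1 h and 2 h (right), for regions at histone genes, ribosomal protein genes (right only), other protein-coding promoters and all tested regions. The histone curve lies left of the others through the middle, with a median of −0.27 at 2 h, but has no longer tail on the left.

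The most negative shifts in the percentile of a gene's highest peak came from H4 genes. Among the 57 genes, the mean percentile was lower at 2 h in 36 and higher in 21, and 26 moved by less than 5 points. It was lower by more than 20 points in 5 genes and higher by more than 20 in 1. The share of all regions that moved as far is not given here, so these counts only describe the genes. On this scale the median of all tested regions moved by 3.66 points at 2 h. Genes that share a peak are each counted, and the 57 genes have 45 distinct regions. The 5 genes with the most negative shift were all genes of histone H4, the core histone that forms the tetramer with H3. They were Hist1h4c, Hist1h4f, Hist1h4a, Hist1h4i and Hist1h4k, all on chromosome 13. The ranking follows the highest peak, which can change place. In the H2A gene Hist2h2ab it lay at −99 and −110 bp from the start at 0 h and at −564 and −542 bp at 2 h. The shift of this gene was −0.445 points. The region of its 0 h peak differed by −0.99 ± 0.36 (SE) in rank score at 2 h (limma adjusted p = 0.0814), close to the −0.97 of Hist1h4k.

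Hist1h4c had percentiles of 75.2 and 89.9 in untreated cells, 77.0 and 69.6 after 30 min, 51.1 and 58.5 after 1 h and 56.0 and 40.2 after 2 h. Its fragments at the summit were 47 and 54 in untreated cells and 30 and 21 after 2 h. All 1 h and 2 h values were below both 0 h values. The rank score differed by −1.31 ± 0.33 (SE) at 1 h (limma adjusted p = 0.0283) and by −1.47 ± 0.33 at 2 h (adjusted p = 0.0136).

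Hist1h4f had close replicates at 0 h and at 2 h. Its percentiles were 62.1 and 61.1 in untreated cells, 51.3 and 38.0 after 30 min, 30.4 and 36.4 after 1 h and 28.4 and 28.3 after 2 h. The 6 later values were all below both 0 h values. Fragments were 51 and 35 in untreated cells and 22 and 20 after 2 h. The rank score differed by −1.16 ± 0.26 (SE) at 1 h (limma adjusted p = 0.0184) and −1.23 ± 0.26 at 2 h (adjusted p = 0.0106), and centred log2 fragments by −1.19 ± 0.20 at 2 h (adjusted p = 0.00211).

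By fold, Hist1h4a began low and ended near the bottom of the lists. Its percentiles were 35.7 and 36.1 in untreated cells, 28.9 and 29.2 after 30 min, 14.2 and 26.1 after 1 h and 6.11 and 7.95 after 2 h, with 45 and 31 fragments in untreated cells and 26 and 24 after 2 h. By fragments it was not near the bottom, since the median peak of the 2 h lists had 13 and 12. The percentiles of 0 h and of every later time did not overlap. The rank score differed by −1.23 ± 0.29 (SE) at 2 h (limma adjusted p = 0.0169). The region is wide (687 bp in 0 h replicate 1), and the highest summit moved between lists, from −20 bp in 0 h replicate 1 to a median of −444 bp from the start over the lists, so the position of the measured peak was not constant.

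Hist1h4i and Hist1h4k had more spread between replicates. Hist1h4i had percentiles of 58.2 and 72.6 in untreated cells, 55.4 and 57.6 after 30 min, 44.0 and 50.8 after 1 h, and 28.2 and 45.6 after 2 h. The 44.0 of 1 h replicate 1 came from another peak, 331 bp into the gene, and the region tested had 38.5 in that list. The rank score of that region differed by −1.11 ± 0.34 (SE) at 2 h (limma adjusted p = 0.0443). Hist1h4k had 63.5 and 57.3 in untreated cells, 59.8 and 28.6 after 30 min, 62.7 and 35.9 after 1 h, and 43.3 and 29.0 after 2 h. Its 2 h values lay below both 0 h values, but its replicates at 30 min and 1 h were far apart, and the difference at 2 h was −0.97 ± 0.36 (SE, limma adjusted p = 0.0865).

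At an adjusted p under 0.05, 4 histone regions were lower and 0 higher at 2 h (11.1% and 8.34% of all regions), and these were the regions of Hist1h4c, Hist1h4f, Hist1h4a and Hist1h4i. At 1 h the count was also 4 lower and 0 higher (8.18% and 5.74%), but the regions were not all the same. Those of Hist1h4c, Hist1h4f and the H3 gene Hist1h3i passed, the last with −0.94 ± 0.26 (SE, limma adjusted p = 0.0406). Those of Hist1h4a and Hist1h4i did not (limma adjusted p = 0.0879 and 0.0927). At 30 min the count was 0 in both directions (1.49% and 0.702%). The 4 regions at 2 h are 4 of the 13 H4 regions that hold a gene's highest peak. None was among the 4 H1, 15 H2A, 14 H2B or 11 H3 regions that do so. This held for the rank score and not for fragments. By limma on centred log2 fragments at 0.05, 5 of the 13 H4 and 6 of the 15 H2A regions were lower at 2 h (15.6% of all regions). So were 3 of the 14 H2B, 3 of the 11 H3 and 1 of the 4 H1 regions. A region shared by genes of different families is counted in each family, and the 57 genes have 45 distinct regions. When 1 library was left out, Hist1h4c missed 0.05 without 0 h replicate 2 or 2 h replicate 2 (limma adjusted p = 0.0949 and 0.096), and Hist1h4f without 0 h replicate 2, 2 h replicate 1 or 2 h replicate 2 (0.0527, 0.0638 and 0.0568). Hist1h4a missed it without 0 h replicate 2, 2 h replicate 1 or 2 h replicate 2 (limma adjusted p = 0.067, 0.0995 and 0.0658) and reached 0.05 without 0 h replicate 1, and Hist1h4i missed it without any 1 of the libraries other than 1 h replicate 1 (0.0518 to 0.247). The difference between families was not tested. The family medians did not separate: the median rank score difference at 2 h was −0.27 for H4, −0.35 for H2A, −0.29 for H3, −0.21 for H2B and −0.15 for H1.

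In the other 8 H4 genes the highest peak moved less in percentile. Their mean percentile at 2 h minus 0 h ran from −2.71 (Hist4h4) to 8.23 (Hist1h4m). Hist1h4d, for example, had 63.2 and 64.3 in untreated cells and 65.8 and 70.6 after 2 h. On the other scales Hist1h4d did not rise, with differences at 2 h of −0.03 ± 0.25 (SE) in rank score and −0.35 in centred log2 fragments. Hist1h4n, at the top of the percentile scale, had −0.35 ± 0.25 (SE) and −0.45, and Hist1h4m had 0.14 ± 0.26 (SE) and 0.13. For some of these 8 the highest peak lies away from the start (718.5 bp downstream for Hist1h4h, 658 bp downstream for Hist1h4m and at −802.5 bp for Hist1h4j, as medians over the lists), and for these the peak measured was not at the gene's own start. Hist1h4j and Hist1h4h also had a tested region at the start, where both 2 h values lay below both 0 h values. The region 90 bp into Hist1h4j had percentiles of 72.2 and 72.2 in untreated cells and 67.7 and 50.9 after 2 h (difference in rank score −0.64 ± 0.31, SE, limma adjusted p = 0.168), and its peak at −802.5 bp had 82.4 and 86.0 in untreated cells and 80.6 and 87.4 after 2 h. The region 70 bp into Hist1h4h had 41.5 and 45.4 in untreated cells and 37.8 and 28.8 after 2 h (−0.50 ± 0.28, SE, adjusted p = 0.246).

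**Figure D5:**
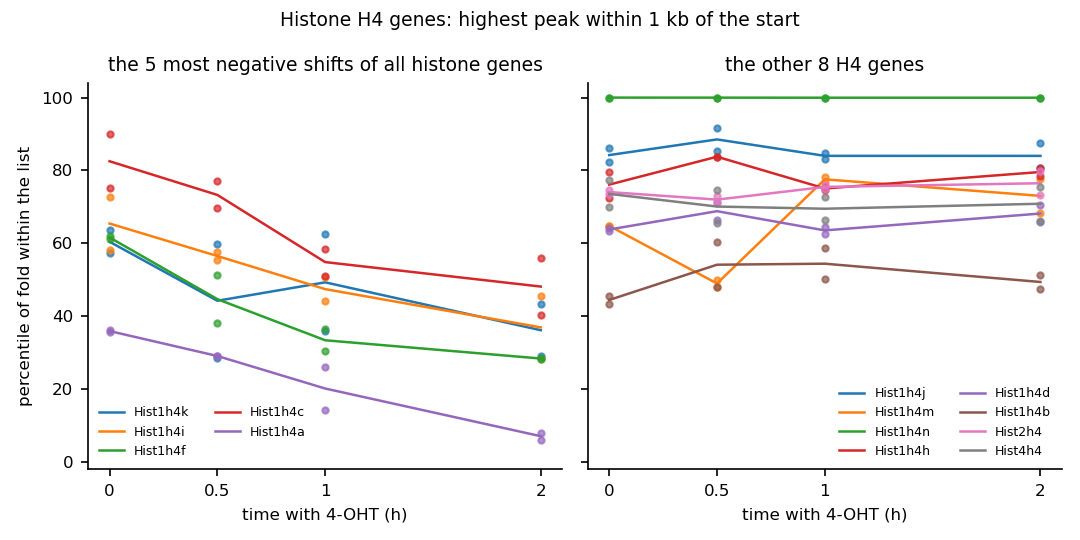
Percentile of the highest peak by fold within the list against time with 4-OHT in h, for the 5 H4 genes with the most negative shift of all histone genes (left) and the other 8 H4 genes (right). Points are the 2 replicates and lines join their means; the 5 genes go from 35.9 to 82.5 at 0 h to 7.03 to 48.1 at 2 h, while the other 8 move by −2.71 to 8.23 points.

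The words of the Ikaros core were counted in these promoters. The 5 H4 promoters with the most negative shift held 8 to 14 core words in 300 bases (GGAA or the word GGGA, on either strand; median 10), and the 7 other H4 promoters with an entry held 3 to 11 (median 7). The Hist1h4a promoter, with 14 core words, held the most. The ranges overlap, all histone promoters had a median of 5 and all promoters of 7. In the 200 bp around the summit the 5 regions had a median of 1.5 words per 100 bp and the other 8 a median of 1.75, so the 2 windows gave opposite orders.

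Across the histone regions core words were sparse. The 63 tested regions had 1.47 ± 0.77 words per 100 bp (mean ± SD over regions) around the summit, against 2.54 for other promoters, 2.90 for ribosomal protein genes and 2.203 for all regions. The regions called lower at 2 h among all 47875 had 3.03, and those called higher 1.52. The GC content around the summit was 51.5% at histone genes and 61.9% at other promoters. H4 regions had 1.92 words per 100 bp, H1 1.63, H3 1.46, H2A 1.37 and H2B 1.36.

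The H1 genes differed in sign. Hist1h1a, the gene of linker histone H1.1, had the most positive shift in percentile of all histone genes, with 44.4 and 53.5 in untreated cells, 72.4 and 63.3 after 30 min, 71.3 and 72.2 after 1 h and 76.4 and 74.2 after 2 h. The 6 later values were all above both 0 h values, and fragments were 44 and 37 in untreated cells and 72 and 59 after 2 h. The rank score differed by 0.75 ± 0.27 (SE) at 2 h, which missed the threshold (limma adjusted p = 0.076). Hist1h1a lies in the same block as Hist1h4a, which had one of the most negative shifts. Hist1h1c had percentiles of 91.0 and 91.7 in untreated cells and 80.6 and 82.5 after 2 h at this site inside the gene, with 93 and 70 fragments in untreated cells and 51 and 46 after 2 h. Its rank score differed by −0.69 ± 0.25 (SE, limma adjusted p = 0.0818), and its centred log2 fragments by −0.92 ± 0.19 (adjusted p = 0.00602).

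The remaining genes with the most positive shifts did not pass the test. Hist2h3c2 had percentiles of 59.96 and 39.8 in untreated cells and 73.5 and 58.1 after 2 h, which overlap. The shared peak of Hist1h2ag and Hist1h2bj had 69.2 and 58.9 in untreated cells and 74.4 and 81.4 after 2 h, which do not overlap, and its centred log2 fragments differed by −0.06, so that the sign of the difference turned with the scale. Hist1h3h had 37.4 and 38.8 in untreated cells and 49.7 and 46.0 after 2 h, which do not overlap either. The limma adjusted p values of these differences at 2 h were 0.497, 0.405 and 0.856.

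Few sites appeared or disappeared. Of the 70 histone regions with a peak in both 0 h lists, 3 had none in either 2 h list (4.29%, against 16.6% of all regions and 7.59% at other promoters), and of the 73 with a peak in both 2 h lists, 4 had none in either 0 h list (5.48%, against 20.5% and 7.99%). The regions lost at 2 h were weak sites beside Hist2h4, Hist1h2bh and the Hist1h2bl/Hist1h2ai/Hist1h3h group, with 13 to 31 fragments in the 0 h lists. The regions gained at 2 h lay near Hist1h2bp, Hist1h4h, Hist1h1t and Hist1h4c and had 7 to 29 fragments in the 2 h lists. The site gained near Hist1h4c lay 472 bp into that gene, at chr13:23697950-23698045, with percentiles of 24.1 and 19.6 after 2 h. No gene with a peak in both 0 h lists lacked one in both 2 h lists.

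The Hist1 genes between Hist1h4h and Hist1h1a on chromosome 13 (29 genes over 232.6 kb) held other accessible sites among them. The 30 tested histone regions of this block had a median rank score difference of −0.37 at 2 h, with 22 below 0, while the 10 tested regions of the block that hold no histone gene peak had 0.44, with 3 below 0. None of these 10 regions passed an adjusted p of 0.01. The 15 tested histone regions of the block between Hist1h2bl and Hist1h2br had −0.18, and the 12 of the Hist2 block on chromosome 3 had −0.22.

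Genes that serve the histone genes were taken from lists of histone locus body, transcription and 3′ processing factors, of histone chaperones, and of replication-independent histone genes. All 18 genes of the locus body and processing list had a peak at the start in all 8 lists. Of their 30 tested regions 0 were lower and 0 higher at 2 h by limma at an adjusted p under 0.01 (4.71% and 2.28% of all regions). Without adjustment 5 had a p under 0.05 and a lower score, and 0 a higher one (17.4% and 17.1% of all). At an adjusted p under 0.05 1 was lower (11.1% of all), that of Zfp473, which encodes a zinc finger protein of the U7 snRNP that cuts histone mRNA (88.7 and 94.0 in untreated cells, 79.0 and 73.0 after 2 h, limma adjusted p = 0.0395). Npat, which encodes the activator of the locus body, had 94.0 and 92.7 in untreated cells and 91.1 and 92.5 after 2 h. Lsm11, another U7 snRNP gene, had the largest positive shift of the list (79.3 and 69.9 in untreated cells, 86.7 and 84.7 after 2 h, limma adjusted p = 0.378).

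All 5 chaperone genes had a peak in all 8 lists, and by limma 0 of 7 tested regions passed an adjusted p of 0.01 or 0.05 at 2 h (4.71% and 11.1% of all regions were lower, 2.28% and 8.34% higher). Without adjustment 1 region had a p under 0.05, with a lower score (17.4% of all). The shifts ran from Chaf1a, a subunit of the CAF-1 complex that deposits H3 and H4 at replication forks (81.1 and 88.7 in untreated cells, 77.2 and 62.4 after 2 h, limma adjusted p = 0.0926), to Nasp, a carrier of H3 and H4 (90.5 and 88.4 in untreated cells, 96.3 and 96.9 after 2 h, adjusted p = 0.16). Of 11 replication-independent histone genes 8 had a peak in all 8 lists, and H2afy2, H1f0 and H1fx had none. Of their 11 tested regions 1 was lower and 0 higher at 2 h at an adjusted p under 0.01 (4.71% and 2.28% of all). It was that of Cenpa, which encodes the H3 variant of centromeres, with percentiles of 98.1 and 96.2 in untreated cells, 88.2 and 93.1 after 30 min, 83.0 and 80.5 after 1 h and 78.1 and 74.0 after 2 h. The groups did not overlap, and the rank score differed by −1.58 ± 0.27 (SE, limma adjusted p = 0.00468). Without 0 h replicate 1, 0 h replicate 2, 2 h replicate 1 or 2 h replicate 2 its limma adjusted p was 0.0345, 0.0247, 0.0268 and 0.0348, past 0.01. H2afz, which encodes H2A.Z, had 89.4 and 96.4 in untreated cells and 71.6 and 82.4 after 2 h (limma adjusted p = 0.0376).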

How the data were processed

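The histone genes and the gene lists were chosen with earlier results of these data known. Per the labels and the study's methods, the authors aligned reads with BWA 0.7.17, kept short nucleosome-free fragments and called peaks with MACS2 2.1.2 on each library alone. The deposited lists give the fold of the summit pileup over local background as a ratio, with its −log10 p-value, and its −log10 q-value after correction. The authors did not scale these values between libraries, so they were used as ranks within a list. The labels name GRCm38 (mm10), which the peaks fit.

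Fold and −log10 p-value together fix the fragments at a summit and the local background under the caller's Poisson model (fold = pileup plus 1 over background plus 1), and a whole number was found for 100.0% of peaks, within 0.001 of the −log10 p-value. The 47875 regions peaked in every list were fitted with limma 3.58.1 (lmFit, eBayes, 4 groups in 1 model, Benjamini-Hochberg over all of them), tested on simulated data. Where nothing says that replicates came from separate cultures, p-values measure only the spread between these libraries. Named genes were those without a peak, those past the threshold, the 5 largest falls and 5 largest rises in mean percentile, and the highest at 0 h in each family. Hist1h4d, Hist1h4j and the other H4 genes, Npat, Hist2h2ab and Hist1h3i were named after their values were seen. Identical copies were found with BLAST+ 2.17.0. Counting intervals were not computed; 2 libraries per time limit the precision. The alternatives were the rank of the −log10 p-value, ranks among all peaks, fragments, fewer libraries per region, a looser threshold, a trend and robust prior, a replicate block, 500 bp, summit windows of 100 bp, lists of equal length, −log10 q of at least 5, and each library left out.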

Additional observations from a re-analysis of the deposited data

How the results depend on the processing

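The count of histone regions lower at 2 h, 0 at an adjusted p under 0.01, was 1 by the −log10 p-value, 4 by centred fragments, 1 by uncentred fragments, 1 with a peak in at least 2 libraries (of 92 regions), 1 with a trend and robust prior, 1 with summit windows (of 60), 4 at an adjusted p under 0.05, 16 by centred fragments at 0.05 and 3 by rank among all peaks at 0.05. At 1 h these counts were 2 by centred fragments, 1 by uncentred fragments, 1 with 2 libraries, 4 at 0.05, 9 by centred fragments at 0.05 and 1 by rank among all peaks at 0.05. The count at 30 min was 1 by centred fragments at 0.05. Regions higher numbered 1 at 1 h and 1 at 2 h by centred fragments at 0.05, and 1 at 1 h and 2 at 2 h by rank among all peaks at 0.05. With each library left out in turn, all 6 counts were 0 at 0.01.

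The replicate block called 0 regions at 0.01 at any time. Deviations of the same replicate number were close to uncorrelated between times (0.017 to 0.04). Such correlations cannot tell how the cultures were set up, and the labels do not say whether the numbers pair the samples. Lists of equal length gave 6 lost regions and a median shift of −4.88 points, and ranks among the tested regions a shift of −7.53. Leaving out a library gave 3 to 10 lost regions (10 without 0 h replicate 2, 5 without 2 h replicate 1) and 4 to 9 gained (9 without 2 h replicate 2, 7 without 0 h replicate 1 or 2 h replicate 1), since presence is then asked of 1 library in place of 2, and a median shift of −3.83 to −0.49.

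Hist1h4c, Hist1h4f, Hist1h4a, Hist1h4i and Hist1h4k were lower at 2 h in all 18 fits made of each, with limma adjusted p values of 0.00632 to 0.096, 0.00211 to 0.0638, 0.00696 to 0.0995, 0.00861 to 0.247 and 0.0341 to 0.322. Cenpa was lower in all its fits but missed 0.01 when any 1 of the 0 h or 2 h libraries was left out (limma adjusted p 0.0247 to 0.0348). The sign turned for Hist1h2ag/Hist1h2bj (−0.06) and Hist1h3f (−0.04) by centred fragments, for Hist1h3h without 0 h replicate 1 (−0.05 to 0.15 over the libraries left out) and for Hist2h2aa2 without 2 h replicate 1 (−0.78 to 0.08). The uncentred fragments, the 0.05 threshold for centred fragments and for ranks among all peaks, and the checks of single genes were added after seeing the data. The cause of these differences was not tested. The median of 29 to 44 fragments per peak and 2 libraries per time limit what these lists can show for 1 gene.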
